A study of Mus musculus with 6 samples.

Results

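Neurotrophins are secreted growth factors that keep neurons alive and tune their synapses, and BDNF is the one best known in the hippocampus, where neuronal activity drives its release. They bind receptor tyrosine kinases of the Trk family, TrkB (gene Ntrk2) for BDNF and TrkC (Ntrk3) for neurotrophin-3, and the p75 receptor (Ngfr), a member of the tumour necrosis factor receptor superfamily, while sortilin (Sort1) sorts BDNF and pairs with p75 to bind neurotrophin precursors. The genes followed here were Bdnf, Ntf3, Ntrk2, Ntrk3, Ngfr and Sort1, each through every probe set whose only gene symbol in the platform annotation was one of them. That gave 24 probe sets for 5 of the 6 genes, out of 45037 probe sets tested: 2 for Bdnf, 8 for Ntrk2, 8 for Ntrk3, 3 for Ngfr and 3 for Sort1. No probe set carried Ntf3 as its only symbol in that annotation, and Ntf3 is not analysed here.

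The arrays compared hippocampal total RNA of 3 IκBα-deficient mice (IκBαfl/-;Nestin-Cre) with that of 3 littermate controls (IκBαfl/-), all aged 2 to 3 months. Both groups carried a floxed allele and a null allele of the gene for IκBα, an inhibitor that keeps NF-κB out of the nucleus, so the controls had a single working copy. Nestin-Cre acts in neural progenitors, the source of neurons and of macroglia, while microglia and vessel endothelium arise elsewhere and keep the floxed allele. Values are the authors' RMA values on the log2 scale, and a positive difference means higher in IκBα-deficient animals.

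The deletion was visible on the arrays. For the targeted gene Nfkbia, 4 of 5 probe sets lay wholly lower in deficient animals, with differences of -1.83 to -1.40, and the 3 probe sets called among all 45037 were all of Nfkbia (limma, adjusted p under 0.05; 0.00666% of probe sets). IκBα-deficient array 2 stood apart. Its 3′ control probe sets exceeded the 5′ ones by 2.02, against 0.61 and 0.65 on the other deficient arrays and 0.56 to 0.73 on the control arrays. On that array 1811 probe sets lay more than 0.30 below the lowest of the other 5 arrays, which is 4.02% of all, against 43 to 426 for each of the others. Choroid plexus markers were also uneven, with 12 of 12 measured genes higher in deficient animals and list means of 7.71 to 8.69 on deficient arrays and 5.64 to 7.82 on control arrays. Hippocampal neuron markers were bright in both groups, with dentate granule means of 9.48 to 9.56 on deficient arrays and 9.56 to 9.79 on control arrays.

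None of the 24 neurotrophin and receptor probe sets passed the test, beside 0.00666% of all probe sets. All had an adjusted p of 0.9999 (limma, Benjamini-Hochberg over 45037 probe sets), and 9 were higher and 15 lower in deficient animals, with a median difference of -0.01 beside -0.0005 over all probe sets. One of the 24, a dim probe set of Ngfr, had an unadjusted p under 0.05, where 3.34% of all probe sets did. The groups did not overlap for 2 of the 24, both lower in deficient animals, where 3.68% of all probe sets lay wholly below. Of the 24, 9 had a mean below the median probe set (6.10), where RMA compresses differences.

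**Figure D1:**
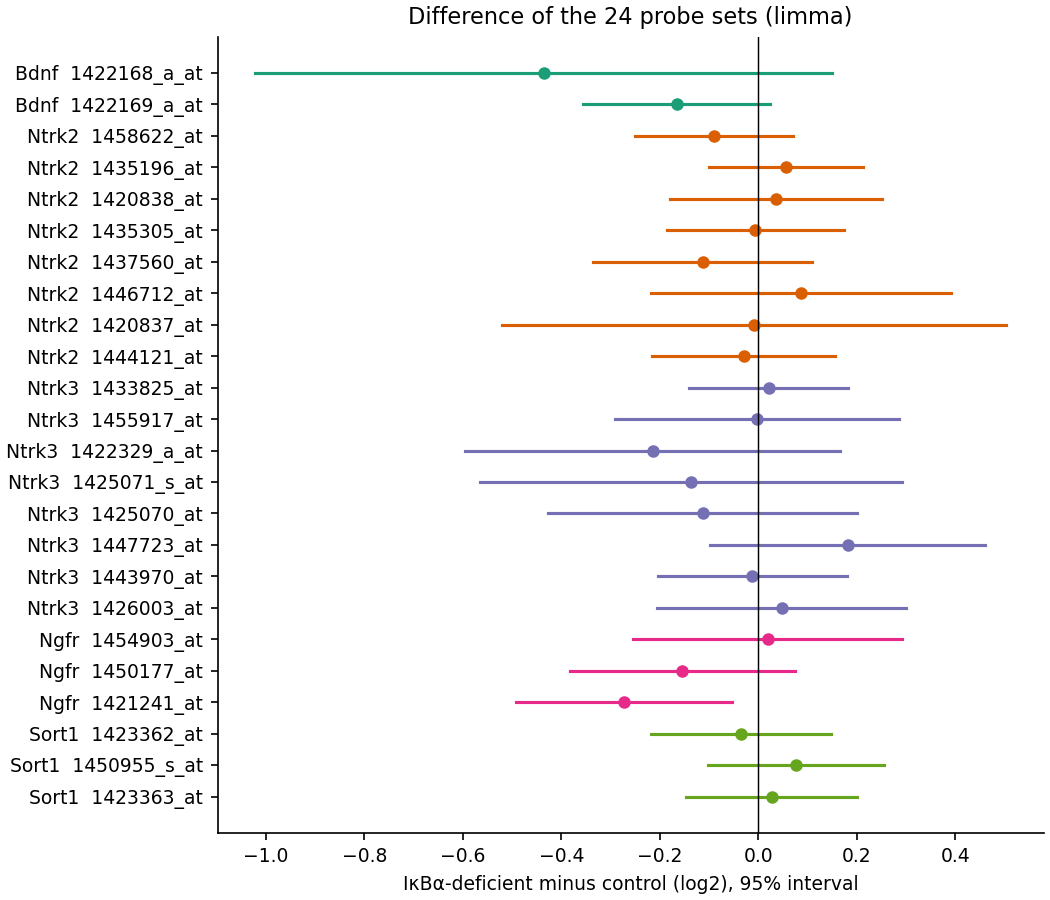
Difference (log2, horizontal axis) of each of the 24 probe sets, IκBα-deficient minus control, with its 95% interval from limma, coloured by gene (Bdnf green, Ntrk2 orange, Ntrk3 violet, Ngfr pink, Sort1 olive). Only the interval of Ngfr probe set 1421241_at, from -0.49 to -0.05, lies off 0, and Bdnf probe set 1422168_a_at has the widest interval.

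Bdnf, the ligand, was measured by 2 probe sets, both lower on average in deficient animals and neither past the threshold. Probe set 1422168_a_at read 9.75, 8.83 and 9.84 on IκBα-deficient arrays 1 to 3, against 9.90, 9.77 and 10.06 on control arrays 1 to 3. A single deficient array, number 2, lay 0.92 below every other array, while the other 2 fell among or just below the controls. The difference was -0.44 ± 0.25 (SE, n = 3 per group; 95% interval -1.02 to 0.15; limma unadjusted p = 0.124, adjusted p = 0.9999). With each array left out in turn it ranged from -0.62 to -0.11. The value of -0.62 was that without IκBα-deficient array 3 (limma unadjusted p = 0.0488, adjusted p = 0.837). With the repeat number as a block it stayed at -0.44 (limma unadjusted p = 0.0399, adjusted p = 0.989). Without IκBα-deficient array 2 it was -0.11 (limma unadjusted p = 0.313), and array 2 was the array with the 3′ to 5′ gap of 2.02. With that gap as a covariate, which differs mainly on array 2, the difference was -0.12.

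Probe set 1422169_a_at of Bdnf did not share that pattern. It read 9.01, 8.95 and 8.90 on deficient arrays, against 9.05, 9.06 and 9.25 on control arrays, so the groups did not overlap, although the highest deficient and the lowest control array were only 0.04 apart. The difference was -0.17 ± 0.08 (SE, n = 3 per group; 95% interval -0.36 to 0.02; limma unadjusted p = 0.0790, adjusted p = 0.9999), or 1.12-fold lower. It ranged from -0.20 to -0.10 with each array left out, and it was -0.16 without array 2. Dentate granule neurons are a main source of hippocampal Bdnf, and 7 of their 7 measured markers were lower in deficient animals, with a median difference of -0.10 and 0 called. These differences ran from -0.38 for Tdo2 to -0.01 for Stxbp6. Of the CA1 and CA3 pyramidal neuron markers, 2 of 7 were higher and 5 lower, with a median difference of -0.05 and 0 called. With the choroid plexus list as a covariate the Bdnf differences were -0.45 for 1422168_a_at and -0.12 for 1422169_a_at. The part of dentate and pyramidal markers in the Bdnf values was not tested. Over the 6 arrays the 2 Bdnf probe sets correlated at r = 0.51, a description of 6 values in which array 2 weighs heavily.

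Bdnf is transcribed from several alternative promoters, and the RefSeq table for build GRCm38.p6 holds 7 start sites for the gene. The arrays do not separate transcripts from these starts, so the promoters are shown as context for a gene that cyclic AMP signalling and NF-κB are both known to act on. In the 250 bases before each start, a search on both strands looked for TGACG, the half-site of the cyclic AMP response element, and for the NF-κB consensus. The first occurred in 1 of 7 Bdnf windows and in 17.8% of 32851 windows of the same length, and the second in 1 of 7 and in 3.90%. Nfkbia, a textbook NF-κB target, is shown beside them with the match in its own window. Capitals mark the match, which begins 35, 229 and 29 bases before the start in the order printed. The 2 Bdnf windows are on the plus strand and the Nfkbia window is on the minus strand, all written 5′ to 3′ in the direction of transcription.
Bdnf window with the half-site (read as CGTCA on this strand), chr2:109692186-109692435: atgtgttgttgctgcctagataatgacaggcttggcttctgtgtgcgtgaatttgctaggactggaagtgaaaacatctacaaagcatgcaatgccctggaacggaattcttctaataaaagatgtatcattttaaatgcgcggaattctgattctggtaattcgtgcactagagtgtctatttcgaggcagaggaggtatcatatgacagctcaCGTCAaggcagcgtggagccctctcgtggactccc
Bdnf window with the NF-κB consensus, chr2:109694159-109694408: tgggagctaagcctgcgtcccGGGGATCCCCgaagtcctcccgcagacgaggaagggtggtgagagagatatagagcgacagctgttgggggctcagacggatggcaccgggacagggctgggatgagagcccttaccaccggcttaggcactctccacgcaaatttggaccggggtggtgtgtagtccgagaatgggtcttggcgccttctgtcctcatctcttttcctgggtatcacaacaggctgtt
Nfkbia window with the NF-κB consensus, chr12:55492648-55492897: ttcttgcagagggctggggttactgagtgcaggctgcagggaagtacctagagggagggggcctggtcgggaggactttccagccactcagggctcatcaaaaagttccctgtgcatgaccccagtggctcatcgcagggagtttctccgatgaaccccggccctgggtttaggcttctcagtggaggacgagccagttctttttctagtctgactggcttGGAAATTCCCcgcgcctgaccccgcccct
Neither motif was found in the windows of Ntrk2 and Ngfr, 1 each. A match describes letters, not a bound site.

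**Figure D2:**
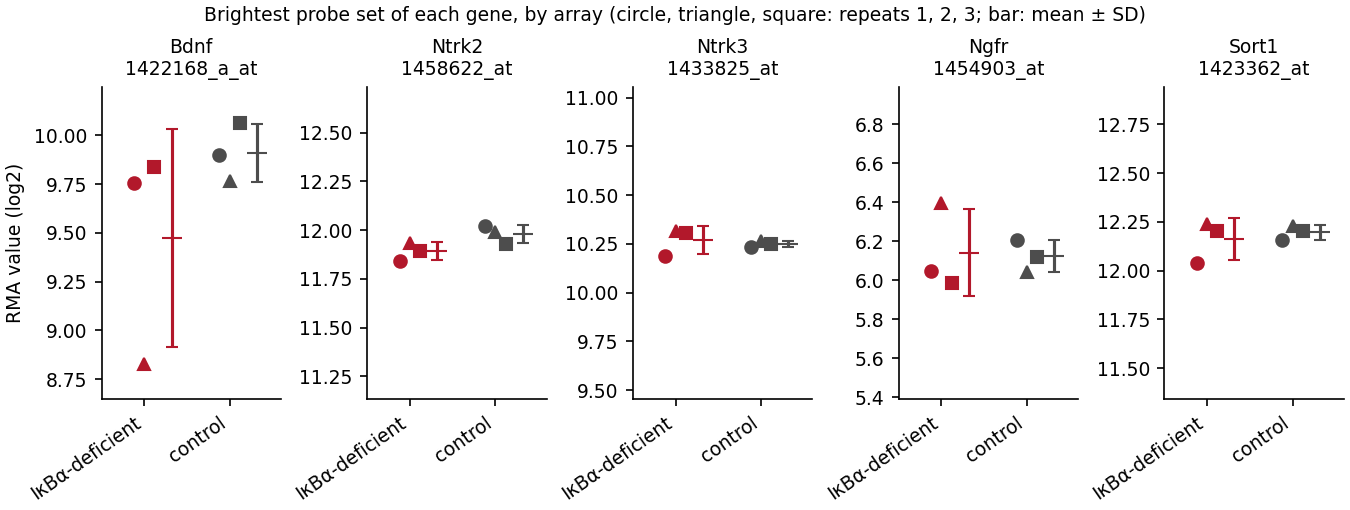
RMA values (log2, vertical axis, each panel spanning 1.6) of the brightest probe set of Bdnf, Ntrk2, Ntrk3, Ngfr and Sort1 in IκBα-deficient (red) and control (grey) arrays, with circle, triangle and square for repeats 1, 2 and 3 and a bar for mean ± SD (n = 3). The Bdnf value of 8.83 on IκBα-deficient array 2 stands apart, and the groups overlap in all 5 panels.

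Ntrk2, the BDNF receptor TrkB, had the most bright probe sets and showed no difference beyond the spread between animals. The gene makes a full-length kinase and truncated receptors, of which the truncated ones are abundant in astrocytes, and the annotation does not say which transcripts each probe set reads. Of its 8 probe sets, 5 had means above 10, and the groups overlapped for all 5. Probe set 1458622_at read 11.84, 11.93 and 11.89 on deficient arrays, against 12.02, 11.99 and 11.93 on control arrays. The lowest control array lay just below the highest deficient array, 0.01 apart. The difference was -0.09 ± 0.07 (SE, n = 3 per group; limma adjusted p = 0.9999).

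The other 4 bright Ntrk2 probe sets stood on both sides of 0. Probe set 1435196_at differed by 0.06, 1420838_at by 0.04, 1435305_at by -0.01 and 1437560_at by -0.11 on the log2 scale. The 95% intervals of the 5 bright probe sets reached no lower than -0.34 and no higher than 0.25, so each interval leaves out a level more than 1.26-fold lower or 1.19-fold higher. The signs of 1420838_at and 1435305_at turned when single arrays were left out. The value of 1437560_at was -0.02 without control array 1, its highest array, and -0.29 ± 0.13 (SE) with the choroid plexus covariate (limma unadjusted p = 0.0660), and that fit does not keep to the limits above. Astrocyte marker means lay at 11.32 to 11.38 on deficient arrays and 11.25 to 11.30 on control arrays, and their part in the Ntrk2 values was not tested. The remaining 3 probe sets were dim. Probe set 1446712_at averaged 5.40 in deficient and 5.31 in control animals, 1420837_at averaged 5.19 in each group, and 1444121_at averaged 3.39 in deficient and 3.42 in control animals.

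Ntrk3, the neurotrophin-3 receptor TrkC, is likewise made as a full-length kinase and as forms without it, and its 8 probe sets fell into sets that behaved differently on array 2. The brightest, 1433825_at, read 10.19, 10.32 and 10.30 on deficient arrays, against 10.24, 10.26 and 10.25 on control arrays. Its groups overlapped, with a difference of 0.02 ± 0.07 (SE, n = 3 per group; limma adjusted p = 0.9999). Probe set 1455917_at likewise gave 9.25 ± 0.23 in deficient and 9.25 ± 0.10 in control animals (SD, n = 3).

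In 3 other Ntrk3 probe sets, IκBα-deficient array 2 was low. Probe set 1422329_a_at read 7.63, 7.06 and 7.69 on deficient arrays, against 7.70, 7.57 and 7.75 on control arrays. Probe set 1425071_s_at read 7.67, 7.02 and 7.69 on deficient arrays, against 7.55, 7.47 and 7.77 on control arrays. Probe set 1425070_at read 5.51, 5.05 and 5.56 on deficient arrays, against 5.50, 5.50 and 5.46 on control arrays. Array 2 lay 0.51, 0.45 and 0.41 below the lowest other array in these 3, and the other 2 deficient arrays lay within the control range, or just above it for 1425070_at. Their differences of -0.21, -0.14 and -0.11 became -0.02, 0.08 and 0.05 without array 2. With Bdnf probe set 1422168_a_at, 4 of the 24 probe sets were more than 0.30 below all others on that array, beside 4.02% of all probe sets.

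**Figure D3:**
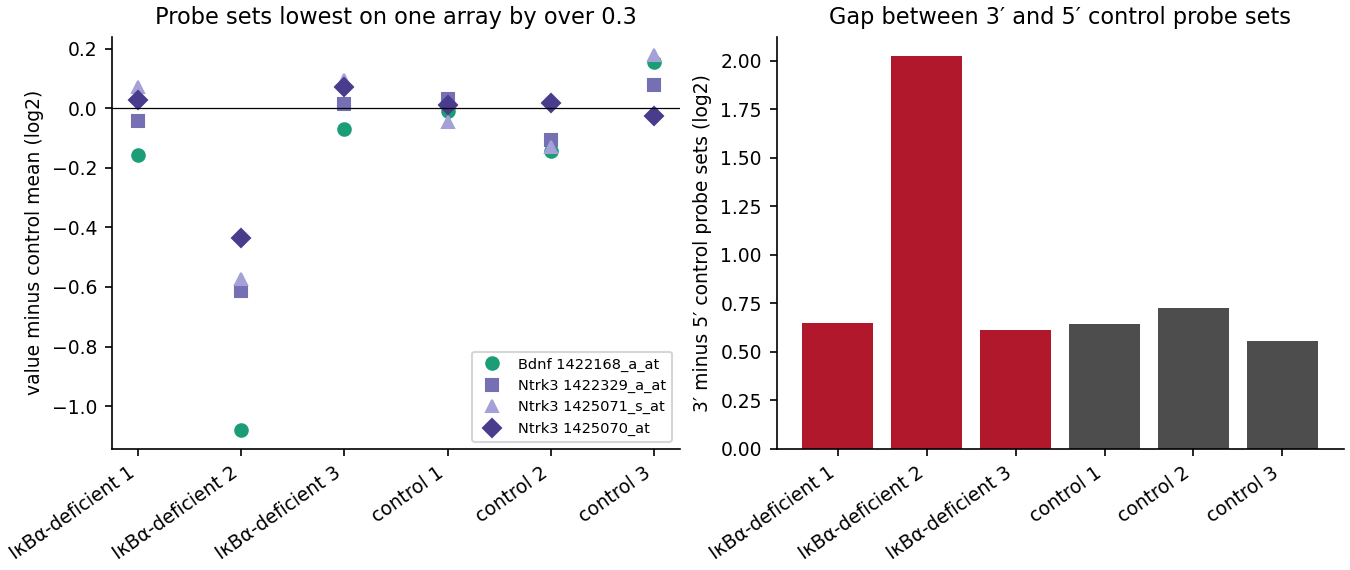
Left, the 4 probe sets that lay more than 0.30 below all other arrays on IκBα-deficient array 2, as the value on each array minus the mean of the control arrays (log2). Right, the 3′ minus the 5′ value of the actin and Gapdh control probe sets, as a mean, on each array (log2, bars from 0, deficient red, control grey), which is 2.02 on the same array and at most 0.73 on the others.

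The last 3 Ntrk3 probe sets were dim. Probe set 1447723_at had the largest positive difference of the 24, 0.18 ± 0.12 (SE, n = 3 per group; limma unadjusted p = 0.169, adjusted p = 0.9999), with 5.28, 5.42 and 5.74 on deficient arrays, against 5.28, 5.24 and 5.37 on control arrays. Without IκBα-deficient array 3 it was 0.05. Probe sets 1443970_at and 1426003_at differed by -0.01 and 0.05.

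Ngfr, the p75 receptor, is abundant on the septal cholinergic neurons that project to the hippocampus, and in adult tissue it is low in most other neurons. Of its 3 probe sets, 2 were dim and the third lay at the array median. Probe set 1454903_at read 6.05, 6.40 and 5.99 on deficient arrays, against 6.21, 6.04 and 6.12 on control arrays. Array 2 was the highest and the other 2 deficient arrays overlapped the controls, with a difference of 0.02 ± 0.12 (SE, n = 3 per group; limma adjusted p = 0.9999) that was -0.11 without array 2. Meninges markers were also highest on array 2, with a list mean of 8.82 against 7.95 and 8.04 on the other deficient arrays and 7.37 to 7.93 on the control arrays. Their part in the Ngfr value was not tested.

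Probe set 1421241_at of Ngfr had the smallest p of the 24. It read 3.90, 3.61 and 3.73 on deficient arrays, against 4.04, 4.09 and 3.94 on control arrays, and the groups did not overlap. The difference was -0.27 ± 0.09 (SE, n = 3 per group; 95% interval -0.49 to -0.05; limma unadjusted p = 0.0213, adjusted p = 0.9999), with a mean at percentile 11.9 of all probe sets, where 0 is the dimmest. Probe set 1450177_at averaged 4.60 in deficient and 4.75 in control animals, with overlapping groups. The markers of septal cholinergic neurons were near the bottom of the scale as well. All 6 measured ones had means below the median probe set, and their list mean was 4.18 to 4.53 on deficient arrays and 4.24 to 4.34 on control arrays.

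Sort1, the sorting receptor sortilin, was bright and even. Probe set 1423362_at read 12.04, 12.24 and 12.20 on deficient arrays, against 12.16, 12.23 and 12.20 on control arrays. The difference was -0.03 ± 0.08 (SE, n = 3 per group; limma adjusted p = 0.9999), and IκBα-deficient array 1 was the lowest of the 6. The other 2 probe sets differed by 0.08 and 0.03. The 95% intervals of all 3 lay between -0.22 and 0.26, which leaves out levels more than 1.16-fold lower or 1.19-fold higher in deficient animals. With the choroid plexus covariate, 1423362_at was 0.05 ± 0.13 (SE) and 1450955_s_at was -0.05 ± 0.11 (SE), and that fit does not keep to these limits. In bulk tissue, fewer cells of a type and less RNA per cell cannot be told apart, and this holds for each gene described here.

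The wider pathway was followed in 6 lists, each gene by its brightest probe set. From each list the 3 genes with the smallest p are named, a choice that favours groups without overlap. Over all probe sets, 3.68% had all deficient arrays below all controls, and the share wholly above was not counted. Across all 6 lists, 0 genes were called higher and 0 lower (limma, adjusted p under 0.05), where 0.00666% of all probe sets were called. Of 111 measured list entries, 10 had an unadjusted p under 0.05 (limma), or 9.01%. Of the 10, 6 were in the list of activity and Bdnf response genes. The share of 3.34% over all probe sets includes dim ones and is no like base for these entries. In a limma fit of the brightest probe set per gene, 857 of 18193 had an unadjusted p under 0.05. Among the other neurotrophins, receptors and sortilin relatives, 3 of 5 measured genes were higher and 2 lower, with a median difference of 0.07. Sorcs2, a sortilin relative that acts as a coreceptor of p75, read 8.39, 8.25 and 8.50 on deficient arrays, against 8.60, 8.63 and 8.67 on control arrays. All deficient values lay below all controls, with a difference of -0.25 ± 0.08 (SE, n = 3 per group; limma unadjusted p = 0.0180, adjusted p = 0.9999). Sorcs1 differed by 0.20. The neurotrophin Ntf5 was dim, at 4.08 in deficient and 3.99 in control animals.

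Genes that process neurotrophin precursors were split, 7 of 12 higher and 5 lower, with a median difference of 0.02. Mmp9, a matrix protease that can cleave proBDNF, averaged 5.06 in deficient and 5.24 in control animals. The prohormone convertase Pcsk1 differed by -0.15, and Plg, the precursor of plasmin, differed by -0.09. Values of all 3 were low or near the array median.

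Downstream of the Trk receptors, 16 of 35 measured adaptor and kinase genes were higher and 19 lower, with a median difference of -0.01. Gab1, a docking protein that links receptors to PI3 kinase, read 9.77, 9.73 and 9.61 on deficient arrays, against 9.42, 9.37 and 9.50 on control arrays. Its deficient values all exceeded the controls, with a difference of 0.27 ± 0.08 (SE, n = 3 per group; limma unadjusted p = 0.00847, adjusted p = 0.9999). Pik3r1, a regulatory subunit of PI3 kinase, differed by 0.20 with groups apart. Akt1, the kinase below PI3 kinase, differed by -0.11, also with groups apart. Of the p75 partners and adaptors, 7 of 16 were higher and 9 lower, with a median difference of -0.002. There the Nogo receptor Rtn4r differed by -0.14, its partner Lingo1 by -0.14 and the kinase Mapk10 by 0.13. For Lingo1 the lowest value, 9.84, was that of array 2. The other deficient arrays read 10.14 and 10.11 for Lingo1, against 10.13 to 10.19 on control arrays.

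Regulators of Bdnf transcription were also split, with 8 of 17 higher and 9 lower and a median difference of -0.02. Rela, the NF-κB subunit p65, read 9.01, 9.29 and 9.10 on deficient arrays, against 8.96, 8.94 and 8.88 on control arrays, with array 2 the highest. The difference was 0.21 ± 0.09 (SE, n = 3 per group; limma unadjusted p = 0.0480, adjusted p = 0.9999). Crem, a regulator at cyclic AMP response elements, averaged 7.46 in deficient and 7.75 in control animals, and its lowest value, 7.11, was that of array 2. Srf differed by -0.11.

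Genes that respond to neuronal activity and to BDNF leaned to one side, with 22 of 26 lower and 4 higher and a median difference of -0.15. The lean was uneven. The 4 higher genes were Egr3 (0.06), Homer1 (0.06), Rgs2 (0.03) and Egr1 (0.005). Some of the lower ones lay near 0, among them Dusp1 (-0.01), Nr4a2 (-0.005) and Dusp6 (-0.005). Arc, a regulator of glutamate receptor traffic, read 9.77, 9.51 and 9.61 on deficient arrays, against 9.78, 10.14 and 10.47 on control arrays. The groups were only 0.01 apart at their nearest arrays, with a difference of -0.50 ± 0.17 (SE, n = 3 per group; limma unadjusted p = 0.0177, adjusted p = 0.9999). Inhba, an activin subunit, differed by -0.33 and Dusp5, a phosphatase of MAP kinases, by -0.31, both with groups apart. Control array 1, the control nearest the deficient arrays for Arc, had a choroid plexus list mean of 7.82. Control arrays 2 and 3 had 5.69 and 5.64, and the deficient arrays 7.71 to 8.69. Inhba, in contrast, was highest on control array 1, at 8.24. The part of tissue content in this list was not tested. Without control array 3, which had the highest Arc value, 19 of 26 were lower with a median of -0.09. Without IκBα-deficient array 2, 24 of 26 were lower with a median of -0.12. The count was lowest, 18 of 26, without IκBα-deficient array 1 (median -0.14) and without IκBα-deficient array 3 (median -0.12). The list holds immediate early genes and was chosen with earlier results of these data known, so it is no independent support for Bdnf.

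**Figure D4:**
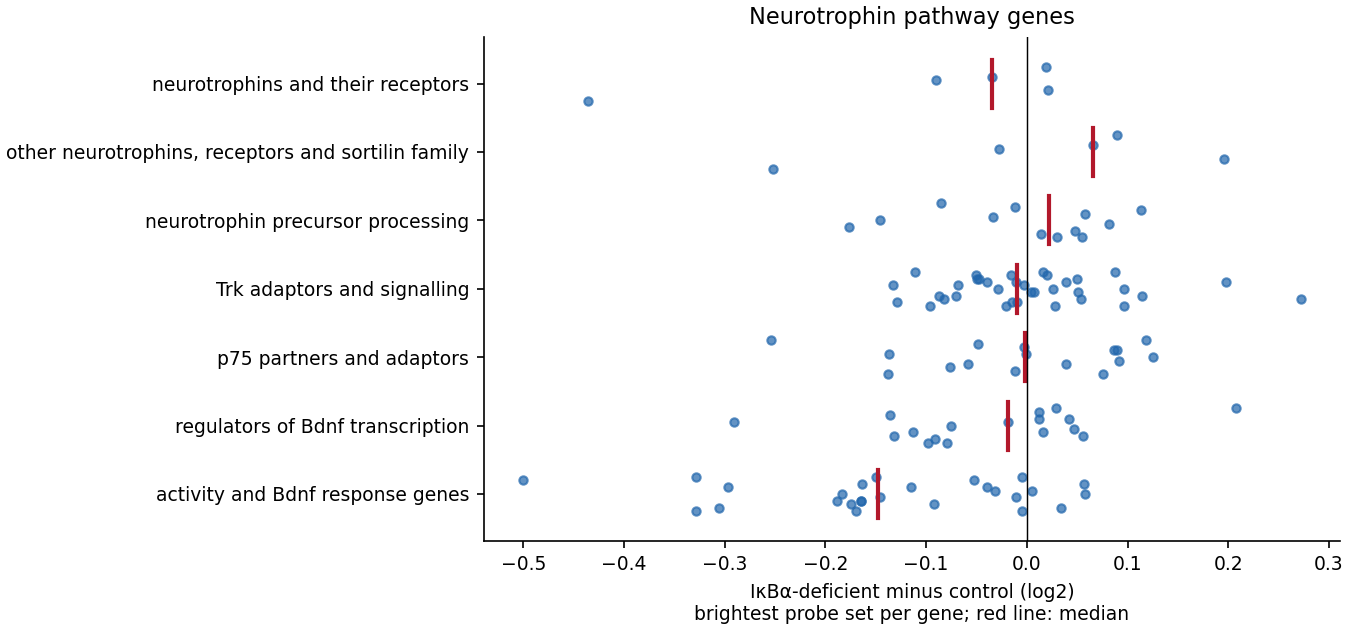
Difference of each measured gene of the 5 measured neurotrophin and receptor genes and of the 6 pathway lists, IκBα-deficient minus control (log2, horizontal axis, brightest probe set per gene), with the median of each list as a red line. Medians lie between -0.03 and 0.07 except for the activity and Bdnf response genes, at -0.15, and no point passed the test.

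The profiles of the members over the 6 arrays had close matches elsewhere on the array, where 6 values were set against 19924 probe sets. For Bdnf probe set 1422168_a_at the 2 most alike genes were Mrpl24 and Bcat1, with Pearson r = 0.999 for both and Spearman rho = 0.94 for both, and 1159 probe sets had an r above 0.95. The low value of IκBα-deficient array 2 spans most of the range behind them, and without that array r was 0.99 and 0.98. Ntrk2 probe set 1458622_at was most like Cyp4f15 and Mfge8 (r = 0.98 for both), with 15 probe sets above 0.95. The most alike genes were Ssh1 and Tbc1d19 for Ntrk3, Trip12 and Zfp622 for Ngfr, and Gabrb1 and Sbno2 for Sort1, with r of 0.985 to 0.997. These values describe 6 arrays and carry no test.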

How the data were processed

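Hippocampal total RNA of 6 mice was measured on Affymetrix arrays, 1 per animal. The deposited values are on the log2 scale and were made by the authors with RMA, per the submitters' processing notes (version, probe annotation and build not given in the sources used here). RMA corrects background, quantile-normalizes and summarises probe sets, so values are relative and a shift shared by most genes would be hidden. Arrays have no read depth, and their number limits the precision.

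Of 45101 probe sets, 64 controls were left out. The platform annotation from GEO, which may be out of date, gave 34945 probe sets 1 symbol and 932 several (not named). The 24 probe sets studied matched RefSeq by Entrez identifier. IκBα-deficient and control arrays were compared with limma 3.58.1 in R 4.3.3 (lmFit, eBayes, two-sided, genotype only, Benjamini-Hochberg over 45037 probe sets, threshold 0.05). The 3′ to 5′ gap is the mean over 2 control pairs. Named genes were the members and, per pathway list, the 3 genes with the smallest p. Arrays are biological repeats per the labels, so p-values cover the spread between animals. The members, lists and tests were chosen with earlier results of these data known. Repeat numbers were checked for pairing: same-numbered arrays correlated at -0.004, 0.27 and 0.03 in their deviations from group means. Unlike-numbered arrays correlated at -0.33 to 0.29, and with 3 arrays per group these values cannot settle pairing. The labels mark no litter by number, so the arrays were not treated as pairs.

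The alternatives run were a block for the repeat number, leaving out single arrays, other scalings, probe set choices, variance models, a threshold of 0.10 and 2 covariates. The test was tried on 10 simulated datasets of 45037 probe sets with 200 changed: 70.6% of changes of 1 and 21.3% of changes of 0.50 on the log2 scale were recovered, with 3.76% false calls. The simulated noise was independent between probe sets, with the same spread in both groups and no array set apart. These shares therefore do not carry over to the real arrays. There Nfkbia probe set 1420088_at, at -1.40, was not called (limma adjusted p = 0.0629). Figures used matplotlib 3.10.9.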

Additional observations from a re-analysis of the deposited data

How the results depend on the processing

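No alternative brought any of the 24 probe sets past the threshold: the member count was 0 under all 17 of them, and the lowest adjusted p of a member was 0.837 (limma, without IκBα-deficient array 3). Of 358 refitted member differences, 319 kept their direction and 39 turned, all of differences within 0.14 of 0. With each array left out in turn, the differences that turned ranged as follows on the log2 scale. For Ntrk2 they were -0.035 to 0.094 (1420838_at), -0.039 to 0.054 (1435305_at), -0.055 to 0.19 (1446712_at), -0.23 to 0.17 (1420837_at) and -0.089 to 0.025 (1444121_at). For Ntrk3 they were -0.0024 to 0.061 (1433825_at), -0.12 to 0.11 (1455917_at), -0.25 to 0.082 (1425071_s_at), -0.21 to 0.049 (1425070_at), -0.058 to 0.056 (1443970_at) and -0.055 to 0.11 (1426003_at). For Ngfr the range was -0.11 to 0.098 (1454903_at). For Sort1 they were -0.074 to 0.026 (1423362_at) and -0.018 to 0.067 (1423363_at). With the choroid plexus covariate, values turned to -0.073 (Ntrk2 1420838_at), 0.082 (Ntrk3 1455917_at), -0.041 (Ntrk3 1426003_at), -0.065 (Ngfr 1454903_at), 0.052 (Sort1 1423362_at), -0.053 (Sort1 1450955_s_at) and -0.017 (Sort1 1423363_at). With the 3′ to 5′ gap covariate, they turned to -0.010 (Ntrk2 1420838_at), 0.0041 (Ntrk2 1435305_at), 0.17 (Ntrk2 1420837_at), -0.0011 (Ntrk3 1433825_at), 0.083 (Ntrk3 1425071_s_at), 0.042 (Ntrk3 1425070_at) and -0.10 (Ngfr 1454903_at). Quantile normalization again turned 1 value, to 0.0004 (Ntrk3 1455917_at). The causes were not tested.

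Over all probe sets, 3 were called. The count was 1 to 8 with each array left out, with 8 without control array 1, and 1 without control array 3 or without IκBα-deficient array 2. It was 1 with the 3′ to 5′ gap covariate, and 0 with the choroid plexus covariate, with no moderation and with 1 probe set per gene, where 700, 1624 and 857 had an unadjusted p under 0.05. The repeat number as a replicate block gave 2 calls, turned 0 of the 24 differences and changed no member call. Signal limits the dim probe sets, and 9 of the 24 lay below the median.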
